A study of Homo sapiens with 6 samples.

Results

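Long intergenic noncoding RNAs that carry a LINC symbol were examined in H1 human embryonic stem cells on day 2 of hematopoietic differentiation, with and without deletion of SNAI1. A symbol counted if it began with LINC followed by a number or a hyphen, was listed once in each of the 2 deposited expression tables, and had a mean of at least 1 FPKM (fragments scaled to transcript length and to the mapped total of the library) over the 6 libraries. Of 1189 LINC symbols listed once in both tables, 90 met this limit and 1099 did not. A value of 0 in all 6 libraries was listed for 474 of these. The 90 RNAs were thus selected on their mean FPKM, which includes the SNAI1 libraries. For this reason 12 of them entered with a WT mean under 1 FPKM, through their level in the SNAI1 libraries, and 3 entered through WT alone.

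SNAI1 is a zinc-finger repressor that drives epithelial-mesenchymal transition, and the study deleted it to examine how stem cells become mesoderm. The groups were wild-type H1 cells (WT, n = 2), SNAI1_1 (n = 2) and SNAI1_2 (n = 2), and all of them received activin A and BMP4, which induce mesoderm. The labels give 40 ng/ml activin A and 50 ng/ml BMP4, while the study's methods assign these doses the other way round. The study describes a pair of CRISPR/Cas9 knockout lines with frameshifts, but the labels do not tie the numbers in the group names to these lines. The study describes independent experiments for its analyses in general, but nothing ties this to separate cultures for these libraries, so the p-values measure only the spread between these libraries, which may be technical. Each table held 1 library of every group, and the library kit does not mark strand.

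Long intergenic noncoding RNAs are transcribed between protein-coding genes, spliced and polyadenylated much like mRNA, but carry no long reading frame. Many are restricted to few cell types, and human pluripotent cells express a characteristic set, of which LINC-ROR, a regulator of reprogramming, is the best known. Several RNAs of that set start inside LTR7, the long terminal repeat of the endogenous retrovirus family HERV-H, which is active in human pluripotent cells.

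The libraries were first checked against their labels. SNAI1 itself stood at 37.1 and 36.4 FPKM in WT, 51.6 and 47.8 in SNAI1_1, and 68.6 and 55.0 in SNAI1_2. All 4 SNAI1 libraries were above both WT libraries (log2 difference 0.58 ± 0.074 (SE), adjusted p 0.00461 by limma). A frameshift can leave the transcript in place, so this level does not check the labels. Mesoderm markers were present in every library, with the summed FPKM of 7 genes between 1545 and 1609 in WT and between 1055 and 1133 in the SNAI1 libraries, and of these T (brachyury) alone was higher, at 17.8 and 38.7 FPKM in WT against 129.6 to 251.3. The summed level of 5 pluripotency markers was 801.4 to 895.8 FPKM in WT and 1041 to 1330 in the SNAI1 libraries. The sum of 5 endoderm markers was 2819 to 3336 FPKM in WT and 1266 to 1924 in the SNAI1 libraries, most of it CER1, while SOX17 was higher (log2 difference 0.63, adjusted p 0.0319). Neural markers (4 genes) summed to 3.13 to 4.33 FPKM in WT and 1.12 to 2.20 in the SNAI1 libraries. Amnion markers (6 genes) summed to 28.5 to 44.2 and 28.9 to 50.6 FPKM, with TFAP2A and GABRP higher (log2 differences 1.82 and 1.16) and GATA3 lower (-0.87). Mesenchymal markers (4 genes) summed to 75.2 to 101.9 and 152.5 to 234.4 FPKM, of which THY1 was called higher (1.19) and COL1A1 was not (0.39, adjusted p 0.149). Blood and endothelial markers (5 genes) summed to at most 2.18 FPKM, and PTPRC, which defines blood cells, was listed at 0 in all 6. In bulk samples fewer cells of a type and less RNA per cell cannot be told apart, and the part of cell composition in the results below was not tested.

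A shared exon links several of the LINC RNAs with the strongest rises. LINC00678 and LINC00458, which ranked first and second by log2 difference, have first exons of 297 and 254 bases in GENCODE 29, and the exons align over 251 bases at 91.6% identity. LINC01356, the sixth, holds 150 bases of the LINC00678 exon at 92.7% identity, in exon 5 of a 7-exon transcript. LINC-ROR holds 208 bases at 90.4%. No repeat annotation was used, so whether the exon lies in LTR7 was not tested.

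The 3 expressed RNAs with this exon all rose in the SNAI1 libraries. LINC00678 and LINC00458 had been picked for their rises, so their direction was fixed in advance. LINC00678, known from human pluripotent cells, stood at 2.33 and 2.66 FPKM in WT, 31.5 and 30.8 in SNAI1_1, and 26.0 and 36.1 in SNAI1_2. No SNAI1 library came near WT, and limma gave a log2 difference of 3.19 ± 0.12 (SE) at an adjusted p of 0.000183. LINC00458, also called HBL1 and known to restrain cardiomyocyte formation from human stem cells, stood at 27.5 and 17.1 FPKM in WT, 132.2 and 147.4 in SNAI1_1, and 128.8 and 141.8 in SNAI1_2. Its groups did not overlap either (log2 difference 2.61 ± 0.18, adjusted p 0.000726). LINC01356 stood at 29.2 and 23.0 FPKM in WT, 97.7 and 75.0 in SNAI1_1, and 88.9 and 72.4 in SNAI1_2. Its log2 difference was 1.64 ± 0.051, with an adjusted p of 0.000155. Among the pluripotency markers, NANOG, POU5F1 and DPPA4 were called higher, and SOX2 and LIN28A were not. NANOG was at 6.58 and 7.16 FPKM in WT and between 11.7 and 19.2 in the SNAI1 libraries. POU5F1 was at 484.8 and 629.9 FPKM in WT and between 676.6 and 1014 in the SNAI1 libraries. DPPA4 differed by 0.41 on the log2 scale (adjusted p 0.00577 by limma) and LIN28A by 0.097 (adjusted p 0.107). SOX2 was at 0.28 and 0.83 FPKM in WT and between 0.47 and 2.18 in the SNAI1 libraries (adjusted p 0.0992). The part of a retained pluripotent fraction in the rises was not tested.

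LINC-ROR was below the limit. It stood at 0.090 and 0.13 FPKM in WT, 0.30 and 0.61 in SNAI1_1, and 0.27 and 0.56 in SNAI1_2. Its 4 SNAI1 libraries were above both WT libraries. In a fit with no limit on the level the log2 difference was 0.36. With an adjusted p of 0.11 by limma, LINC-ROR was not called. LINC00882, LINC02257 and LINC02474 were also below the limit. They align to the first exon of LINC00678 or LINC00458 over 158, 164 and 162 bases. In each of them the SNAI1 and WT libraries overlapped.

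Genes outside the LINC group hold the same exon sequence. The first exons of LINC00678 and LINC00458 were aligned to all GENCODE 29 transcripts on the sense strand, and 86 genes had an alignment of at least 100 bases at 80% identity or more, the 3 LINC RNAs included. This list was drawn up after the values of those RNAs had been seen and was given no test. An alignment can lie in any annotated transcript of a gene, expressed here or not, while FPKM is given per gene symbol. Of 39 genes with enough signal to be tested, 23 were called higher, 3 lower and 13 neither. The share called higher was 59.0%, beside 15.8% of all 13909 genes tested. Of the 39, 9 had a WT mean under 1 FPKM and passed the limit only through the SNAI1 libraries, which favours a higher call. Of these 9, 8 were called higher, beside 57.5% of 623 genes with such a WT mean. Of the other 30, with at least 1 FPKM in both WT and SNAI1 means, 15 were called higher (50.0%), 3 lower and 12 neither, beside 14.1% called higher among 13031 genes of that kind. Those 15 include the 3 LINC RNAs. Without these RNAs the full list held 20 higher calls in 36 genes (55.6%). Genes with alignments of at least 200 bases were called higher in 13 of 16 cases, with a median log2 difference of 2.60, and none was called lower. Without LINC00678 and LINC00458, which were chosen for their rises, it was 11 of 14, with a median of 2.43. Among the 11 of the 16 with at least 1 FPKM in both means, 8 were called higher, LINC00678 and LINC00458 included. Genes with shorter alignments were called higher in 10 of 23 cases and lower in 3, with a median of 0.27. The largest rise on the list was that of ESRG, a noncoding transcript of human pluripotent cells, with 251 aligned bases at 95.6% identity. ESRG stood at 3.58 and 3.88 FPKM in WT, 62.3 and 85.9 in SNAI1_1, and 66.3 and 111.7 in SNAI1_2 (log2 difference 4.09, adjusted p 0.00018). ABHD12B, with 175 aligned bases, differed by 3.60 on the log2 scale (adjusted p 0.000139). The 3 genes called lower were CALB1, IP6K2 and TIMM50, with log2 differences of -0.62, -0.33 and -0.27.

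**Figure D1:**
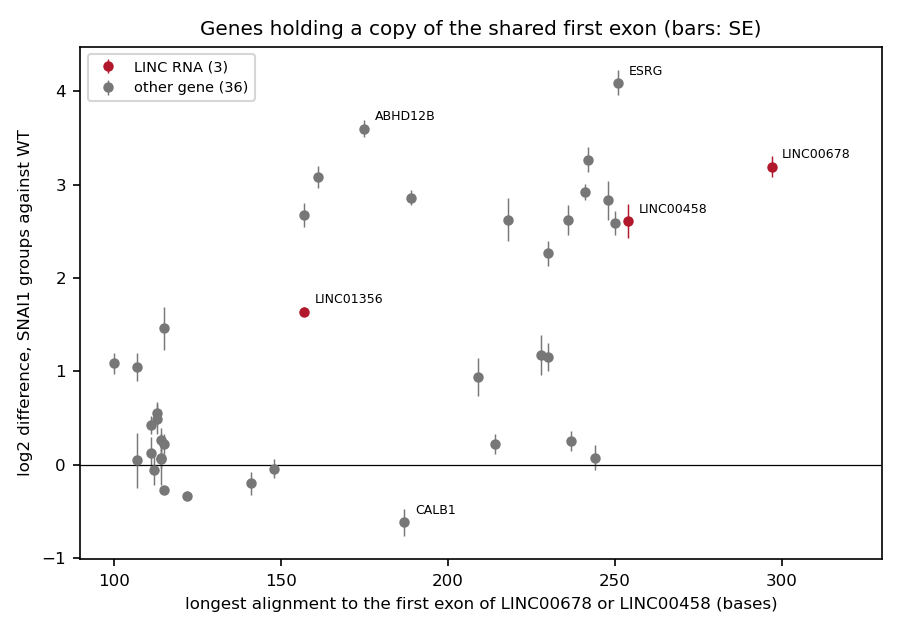
Log2 difference of the SNAI1 groups against WT (vertical axis, bars are SE) for the 39 tested genes with a copy of the shared first exon, against the length of the longest alignment in bases (horizontal axis). LINC00678, LINC00458 and LINC01356 (red) lie among other genes (grey) that reach 4.09 for ESRG, and the 23 genes with alignments under 200 bases have a median of 0.27.

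Copies of this kind can share reads. In the longest transcripts, 5.3% of the 50-base words of LINC00678, 4.4% of those of LINC00458, 3.8% of those of LINC01356 and 1.3% of those of LINC-ROR also occurred in an annotated transcript of another gene. Copies outside annotated transcripts were not searched, and how reads with several matches were assigned is not given in the sources used here, so the levels of these RNAs are uncertain to that extent.

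Over all 90 LINC RNAs, SNAI1_1 and SNAI1_2 together differed from WT in 31 (34.4%), 21 higher and 10 lower. The background over all genes tested was 31.3%, with 15.8% higher and 15.4% lower. The LINC share of calls was thus near the background, while the higher calls were 23.3% of the LINC RNAs and the lower calls 11.1%. That higher share includes RNAs that entered through the SNAI1 libraries, which favours a higher call. Of the 75 LINC RNAs with at least 1 FPKM in both WT and SNAI1 means, 17.3% were called higher, beside 14.1% of 13031 genes. The median log2 difference of the 90 LINC RNAs was -0.010, beside -0.050 over all genes. Without the table as a block, which leaves out the pairing of libraries by table, 13 of the 31 were called, 10 higher and 3 lower. Calls over all 13909 genes went from 4348 to 1065 in that fit. Each WT library left out in turn gave 14 calls. Leaving out the second-table library of SNAI1_1 gave 17, and that of SNAI1_2 gave 19. Calls over all genes were also fewer in each of these fits. The LINC RNAs called in every alternative that tested them numbered 9, namely LINC00458, LINC00545, LINC00678, LINC00888, LINC01108, LINC01194, LINC01315, LINC01356 and LINC01867.

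Large differences were counted by level. A log2 difference of at least 1 in either direction was reached by 16 of the 90 (17.8%), beside 7.23% of 11998 protein-coding genes. Of the 16, 12 were called higher and 3 lower, and LINC00444 (log2 difference -1.22 ± 1.48) did not pass. LINC00444 is also counted in the 7 of 34 and the 11 of 75 given below. The share differed between levels. The level is the mean over all 6 libraries, so a rise moves an RNA or gene into a higher bin. LINC00678 and LINC01315, with WT means of 2.50 and 5.52 FPKM, are counted from 10 FPKM for this reason. At a mean of 1 to 2 FPKM it was reached by 2 of 30 LINC RNAs (6.67%), beside 8.85% of protein-coding genes, at 2 to 5 FPKM by 7 of 34 (20.6%, beside 11.2%), at 5 to 10 FPKM by 2 of 11 (18.2%, beside 9.21%) and from 10 FPKM by 5 of 15 (33.3%, beside 5.15%). For 75 LINC RNAs, with at least 1 FPKM in both WT and SNAI1 means, entry did not depend on one side. Of these, 13 were called higher (17.3%) and 8 lower, beside 1843 (14.1%) and 2047 of 13031 genes of that kind. A log2 difference of 1 was reached by 11 of the 75 (14.7%), beside 5.85% of 11456 protein-coding genes of that kind. Antisense RNAs with symbols ending in -AS were called in 20.1% of 204 cases, 19 higher and 22 lower. Small nucleolar RNA host genes (SNHG) were called in 22.7% of 22 cases, 1 higher and 4 lower, and microRNA host genes in 5 of 9, 4 of them higher.

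**Figure D2:**
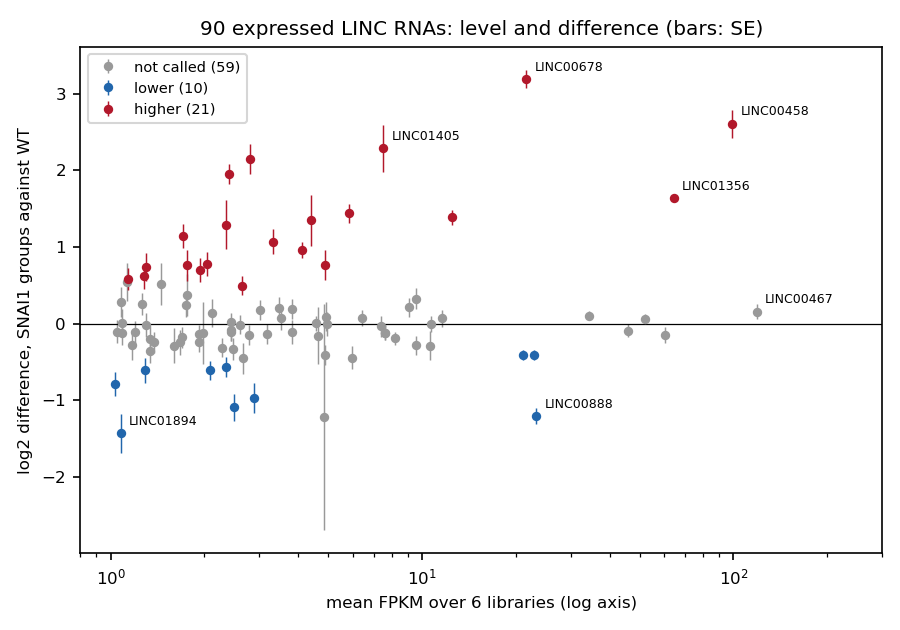
Log2 difference of the SNAI1 groups against WT (vertical axis, bars are SE) against mean FPKM over 6 libraries (horizontal log axis) for the 90 LINC RNAs, coloured by call. The 21 higher (red) reach 3.19 and the 10 lower (blue) reach -1.43, and the wide bar near 5 FPKM is LINC00444.

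Taken alone, SNAI1_1 differed from WT in 20 LINC RNAs (13 higher, 7 lower), beside a background of 23.9% in all, 13.0% higher and 10.9% lower. SNAI1_2 differed in 23 (15 higher, 8 lower), beside a background of 25.5%, 13.5% higher and 12.0% lower. These comparisons share the WT libraries. Calls in both groups numbered 16, in SNAI1_1 alone 4 and in SNAI1_2 alone 7, and 5 RNAs passed only with the groups combined.

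Several further LINC RNAs were near silent in WT and measurable in every SNAI1 library. LINC00545 was listed at 0.28 and 0 FPKM in WT, 2.62 and 3.85 in SNAI1_1, and 5.51 and 4.52 in SNAI1_2 (log2 difference 2.14, adjusted p 0.00164 by limma). LINC01194 stood at 0.20 and 0.14 FPKM in WT, 3.43 and 3.79 in SNAI1_1, and 3.39 and 3.45 in SNAI1_2 (log2 difference 1.95, adjusted p 0.00064). Both had non-overlapping groups. LINC01108, known from human pluripotent cells, stood at 0.56 and 0.43 FPKM in WT, 2.21 and 2.86 in SNAI1_1, and 1.83 and 2.38 in SNAI1_2 (log2 difference 1.14, adjusted p 0.00546). LINC00173, described in granulocyte differentiation, was more variable, at 0.47 and 0.85 FPKM in WT, 1.72 and 4.02 in SNAI1_1, and 4.52 and 2.49 in SNAI1_2. Its log2 difference was 1.29 ± 0.32, with an adjusted p of 0.0332. On the log2(FPKM + 1) scale such differences understate the change of low values. In all, 8 of the 12 RNAs with a WT mean under 1 FPKM were called higher (66.7%), which their entry through the SNAI1 libraries favours. Among all genes tested with such a WT mean it was 57.5% of 623, and among protein-coding genes 69.4% of 396.

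Other rises started from a measurable WT level. LINC01405, since renamed VHRT, stood at 1.23 and 1.36 FPKM in WT, 14.9 and 6.98 in SNAI1_1, and 8.25 and 12.4 in SNAI1_2 (log2 difference 2.28 ± 0.31, adjusted p 0.00522). LINC01867 stood at 2.35 and 1.94 FPKM in WT, 8.92 and 5.68 in SNAI1_1, and 9.68 and 6.42 in SNAI1_2 (log2 difference 1.44, adjusted p 0.00120). Both were separated from WT in every library, although LINC01405 varied more between libraries of a group. LINC01315 was steadier, at 4.98 and 6.06 FPKM in WT, 14.8 and 17.3 in SNAI1_1, and 16.3 and 15.6 in SNAI1_2 (log2 difference 1.38, adjusted p 0.000730). LINC01770 stood at 1.88 and 1.20 FPKM in WT, 3.80 and 7.24 in SNAI1_1, and 3.17 and 9.16 in SNAI1_2. Its log2 difference of 1.35 passed for both groups together (adjusted p 0.0345) but for neither alone (0.0643 and 0.0561). It was 2.05 without the first-table WT library and 0.64, no longer called (adjusted p 0.137), without the second-table one. The other 10 rises had log2 differences between 0.49 for LINC01124 and 1.07 for LINC00963.

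Most of these smaller rises were still separated from WT in every library. LINC00963 was at 1.71 and 1.27 FPKM in WT, 4.24 and 4.05 in SNAI1_1, and 3.63 and 4.96 in SNAI1_2 (log2 difference 1.07, adjusted p 0.00736 by limma). LINC00623 was at 1.77 and 2.47 FPKM in WT, 4.10 and 5.08 in SNAI1_1, and 4.56 and 6.67 in SNAI1_2 (log2 difference 0.96, adjusted p 0.00311). LINC01138 was at 1.57 and 0.62 FPKM in WT, 2.78 and 2.12 in SNAI1_1, and 2.91 and 2.27 in SNAI1_2 (log2 difference 0.78, adjusted p 0.0158). LINC00941, linked to tumour invasion, was at 2.57 and 3.39 FPKM in WT, 6.76 and 4.90 in SNAI1_1, and 7.10 and 4.55 in SNAI1_2 (log2 difference 0.77, adjusted p 0.0355). All 4 had every SNAI1 library above WT, with LINC00941 further from it in the first table than in the second. Without the first-table WT library LINC00941 had a log2 difference of 0.38 and was not called (adjusted p 0.163), and without the second-table one it had 1.15. LINC01836, LINC02520, LINC01503, LINC01426 and LINC01829 followed with log2 differences of 0.76, 0.74, 0.69, 0.62 and 0.58, each also without overlap. LINC01426, which lies beside the blood transcription factor gene RUNX1, was at 0.72 and 0.63 FPKM in WT and between 1.31 and 2.01 in the SNAI1 libraries, and RUNX1 differed by 0.45 on the log2 scale (adjusted p 0.0919). LINC01124 was the exception, since its first-table SNAI1_1 library, at 2.19 FPKM, lay below the second-table WT library, at 2.35.

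**Figure D3:**
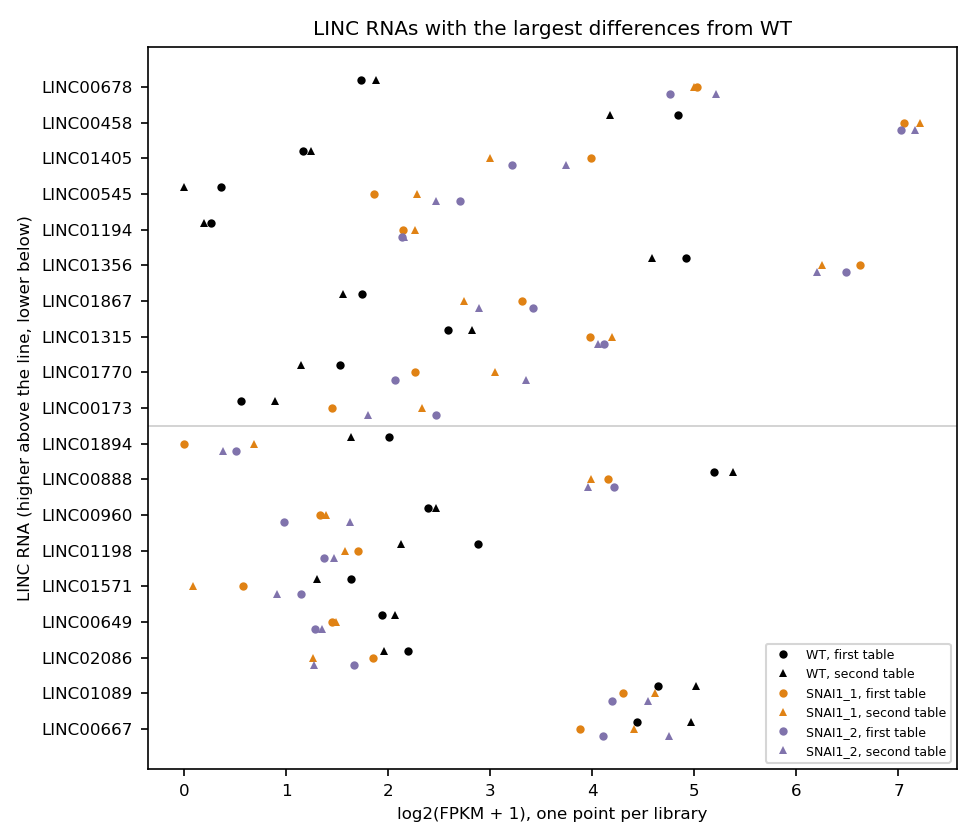
Log2(FPKM + 1) in each library (horizontal axis) for the 10 LINC RNAs with the largest rises and the 9 lower ones with the same sign in each table and group (vertical axis), WT in black, SNAI1_1 in orange and SNAI1_2 in purple, circles for the first table and triangles for the second. WT lies to the left of every SNAI1 library in each of the 10 upper rows and to the right in 8 of the 9 lower ones, LINC00667 being the exception.

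The falls were fewer. LINC01894 dropped from 3.02 and 2.11 FPKM in WT to 0 and 0.60 in SNAI1_1, and 0.42 and 0.30 in SNAI1_2 (log2 difference -1.43 ± 0.26, adjusted p 0.0123 by limma). LINC00888, since renamed SNHG33 and the most abundant of the lower RNAs, was at 35.5 and 40.6 FPKM in WT, 16.8 and 14.8 in SNAI1_1, and 17.5 and 14.6 in SNAI1_2. The groups were well separated (log2 difference -1.21 ± 0.11, adjusted p 0.00138). LINC00960 was at 4.22 and 4.51 FPKM in WT, 1.52 and 1.61 in SNAI1_1, and 0.97 and 2.08 in SNAI1_2 (log2 difference -1.09, adjusted p 0.00852). Its exons overlap those of ZNF717 on the opposite strand in GENCODE 29, and the reads of the pair cannot be told apart here. ZNF717 differed by -0.12 on the log2 scale (adjusted p 0.642).

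Smaller falls included LINC01198, at 6.36 and 3.35 FPKM in WT, 2.26 and 1.98 in SNAI1_1, and 1.59 and 1.76 in SNAI1_2 (log2 difference -0.97, adjusted p 0.0194). Without the first-table WT library it was -0.60 and not called (adjusted p 0.114). LINC00649 and LINC02086 had log2 differences of -0.61 and -0.57, with adjusted p of 0.0185 and 0.0305. LINC01089, described as an inhibitor of metastasis, was at 24.0 and 31.3 FPKM in WT, 18.8 and 23.5 in SNAI1_1, and 17.3 and 22.4 in SNAI1_2. Even the lower WT library was above all SNAI1 libraries, and the log2 difference was -0.41 with an adjusted p of 0.00730. LINC00667 was at 20.6 and 30.2 FPKM in WT, 13.7 and 20.2 in SNAI1_1, and 16.2 and 26.0 in SNAI1_2. Its libraries overlapped between groups across tables but not within a table, and it had a log2 difference of -0.41 at an adjusted p of 0.00943.

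All libraries of SNAI1_1 and SNAI1_2 lay above both WT libraries in 22 of the 90 LINC RNAs and below both in 12, beside 16.9% and 17.1% of all genes tested. The 22 include RNAs with a WT mean under 1 FPKM, such as LINC00545 and LINC01194. Their entry through the SNAI1 libraries favours such separation. Of the 21 called higher, 20 were separated in this way, as were 8 of the 10 called lower. Of the 31 called, 30 had the same sign in all 4 within-table differences. These counts come from the same values as the calls and give them no separate support. A log2 difference of 1 or more in size was reached by 15 LINC RNAs in the first table, and 14 of these had the same direction in the second. Between tables the differences had a Pearson r of 0.646 over the 90 RNAs, beside 0.772 over all genes. RNAs are not independent replicates, and the r is given as a description. The r over the 90 RNAs includes LINC00444, which stands apart from the rest.

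**Figure D4:**
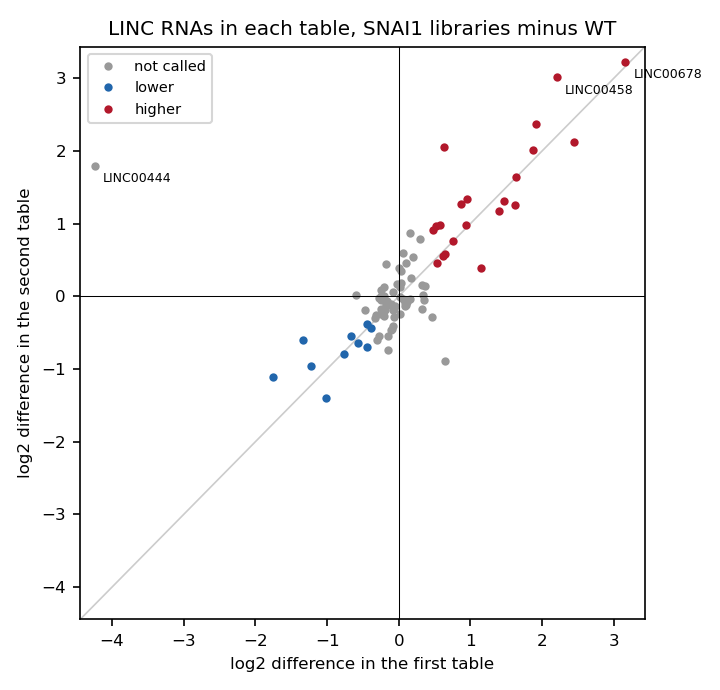
Mean log2 difference of the SNAI1 libraries from WT in the first table (horizontal axis) and the second (vertical axis) for 90 LINC RNAs, coloured by call, with the line of equality in grey. The called RNAs lie in the quadrants of equal sign, and LINC00444 stands apart at -4.24 and 1.80.

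Between SNAI1_2 and SNAI1_1, limma called 0 of the 90 LINC RNAs and 0.0% of all genes. An unadjusted p under 0.05 was found for 5 LINC RNAs and for 521 of all genes. The largest difference with a steady pattern was that of LINC01410, at 1.93 and 1.75 FPKM in WT, 1.95 and 1.58 in SNAI1_1, and 0.15 and 0.36 in SNAI1_2. Both SNAI1_2 libraries were below the other 4, and the log2 difference between SNAI1_2 and SNAI1_1 was -1.14, with an adjusted p of 0.886 by limma. LINC01410 is among the 10 called lower for the groups together (log2 difference -0.61, adjusted p 0.0426). SNAI1_1 alone differed from WT by only -0.040 (adjusted p 0.899). LINC01571 showed the opposite order, at 2.10 and 1.46 FPKM in WT, 0.49 and 0.062 in SNAI1_1, and 1.22 and 0.87 in SNAI1_2. Its log2 difference between SNAI1_2 and SNAI1_1 was 0.69, with an unadjusted p of 0.00998 by limma that did not pass after adjustment. LINC00444 was listed at 17.9 and 0 FPKM in WT, 0 and 0 in SNAI1_1, and 0 and 11.1 in SNAI1_2. RefSeq holds this symbol as a synonym of the protein-coding gene SUCLA2, and its direction turned when single libraries were left out.

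The other 59 LINC RNAs did not pass for the groups combined. Their log2 differences lay within 0.25 of 0 in 42 cases and, LINC00444 aside, between -0.45 for LINC01023 and 0.55 for LINC01686, with a median SE of 0.14.

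Of the 5 most abundant LINC RNAs, LINC00458 and LINC01356 were called and the other 3 were not. LINC00467 had the highest mean (118.9 FPKM), at 116.3 and 101.7 FPKM in WT, 151.5 and 103.5 in SNAI1_1, and 146.7 and 93.7 in SNAI1_2. Its groups overlapped, and the adjusted p was 0.281. LINC01578, now CHASERR, which restrains its neighbour CHD2, had a mean of 60.1 FPKM, a log2 difference of -0.15 at an adjusted p of 0.316. LINC00665 had a mean of 51.9 FPKM, a log2 difference of 0.059 at an adjusted p of 0.523. The 3 most abundant RNAs (LINC00467, LINC00458 and LINC01356) held 33.3% of the summed mean FPKM of the 90, whose median level was 2.72 FPKM. A mean of at least 10 FPKM was reached by 15, of 5 to 10 by 11, of 2 to 5 by 34 and of 1 to 2 by 30. Together the 90 took 0.114% to 0.116% of the FPKM of a WT library and 0.146% to 0.153% of a SNAI1 library. Just inside the limit were LINC01571 (1.03 FPKM), LINC00959 (1.05) and LINC01894 (1.08), and just outside it were LINC01484 (0.993), LINC02482 (0.968) and LINC01547 (0.939).

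Not all symbols still stand for noncoding RNAs. RefSeq lists 72 of the 90 under the same symbol and 18 under a newer one, and 5 as protein-coding. LINC00116 is now MTLN, the gene of a small mitochondrial membrane protein, and stood at 48.3 and 47.7 FPKM in WT, 42.2 and 45.0 in SNAI1_1, and 50.8 and 41.9 in SNAI1_2, with overlapping groups and an adjusted p of 0.447. The other 4 were LINC00094 (BRD3OS), LINC00444, LINC00959 (C10orf143) and LINC01125 (C2orf92). GENCODE 29 holds 82 of the 90 symbols and classes 59 as lincRNA. Of 20 symbols chosen for a known role or a small protein, 5 were expressed (LINC00458, LINC00678, LINC01108, LINC00467 and LINC00116), 6 were below the limit and 9 were not found under these symbols in the analysed tables. Below the limit were LINC-ROR, the p53-induced LINC-PINT, LINC00261, which lies next to the endoderm factor FOXA2, LINC00473, LINC00511 and LINC01133.

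To ask whether LINC RNAs moved with the genes beside them, each was paired with the nearest tested protein-coding gene by RefSeq gene order. The direction was the same in 50 of 89 pairs (56.2%), beside 56.5% of 11994 pairs of protein-coding neighbours. Where both genes were called, it was the same in 9 of 10 pairs, beside 65.1% of 1454. The Pearson r of the log2 differences was 0.242 over the LINC pairs and 0.166 over the protein-coding pairs. The strongest joint fall was that of LINC01894 and ZNF521, a zinc-finger gene of hematopoietic progenitors. ZNF521 was at 33.2 and 23.7 FPKM in WT, 5.39 and 7.91 in SNAI1_1, and 8.22 and 6.64 in SNAI1_2 (log2 difference -1.87, adjusted p 0.00259 by limma). MCF2L2, beside LINC00888, fell by 0.69 on the log2 scale, and RUBCNL, beside LINC01198, by 0.51.

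Joint rises were found for LINC01770 with TMEM88B (1.15), LINC01124 with SP5, a Wnt target (0.91), LINC00941 with CAPRIN2 (0.63), LINC01194 with CTNND2 (0.57), LINC01405 with CUX2 (0.56) and LINC00458 with CNMD (0.50), where the values are the log2 differences of the protein-coding genes. The nearest tested gene can be far away, since SP5 lies 0.8 kb, CAPRIN2 40.7 kb and CUX2 96.7 kb from its LINC RNA but CTNND2 670.4 kb and CNMD 1384.5 kb. LINC01770 and TMEM88B overlap in their gene bodies, so their values are not separate without strand. The exception was LINC02520, which rose while CCDC167 fell by 0.53 on the log2 scale. LIN7C, the neighbour of LINC00678, differed by -0.023 on the log2 scale (adjusted p 0.894), and SLC16A1, that of LINC01356, had -0.25 and 0.0853.

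**Figure D5:**
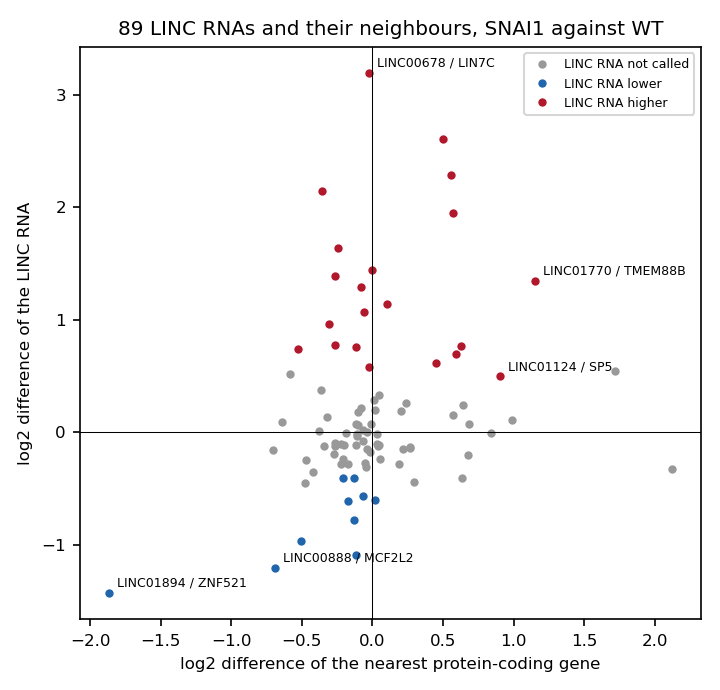
Log2 difference of each LINC RNA (vertical axis) against that of its nearest tested protein-coding gene (horizontal axis), SNAI1 groups against WT, for 89 pairs, coloured by the call of the LINC RNA. LINC01894 and ZNF521 lie at the lower left, and LINC00678 lies at 3.19 above a neighbour near 0.

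SNAI1 protein binds the E-box CAGGTG, which reads CACCTG on the other strand. RefSeq promoter windows on GRCh38.p14, 250 bases before to 50 after a start, were available for 69 of the 90 LINC RNAs and were searched for both spellings. The motif was present in 14 of 69 (20.3%), beside 24.1% of 27305 genes. It was present in 5 of 16 called higher (LINC00173, LINC00623, LINC01770, LINC01829 and LINC02520), in 0 of 6 called lower and in 9 of 47 not called. A match is a description of the letters and shows no binding. The window of LINC01770, on the minus strand at chr1:1434524-1434823, is printed with its motif in capitals because it starts 10 bases before the annotated start of the RNA, the closest among those called higher that lie upstream.
LINC01770: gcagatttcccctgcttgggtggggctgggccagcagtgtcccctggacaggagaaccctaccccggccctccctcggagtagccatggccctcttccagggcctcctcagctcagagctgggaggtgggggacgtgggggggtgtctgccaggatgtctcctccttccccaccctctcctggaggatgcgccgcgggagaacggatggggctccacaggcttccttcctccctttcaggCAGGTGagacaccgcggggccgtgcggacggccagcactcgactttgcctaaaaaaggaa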

How the data were processed

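RNA-seq of 6 libraries (WT, SNAI1_1 and SNAI1_2, n = 2 each) was analysed from 2 tables of FPKM values that the authors deposited per gene symbol, with 1 library of every group in each. The unit is named only in the second table. The submitters' processing notes name BWA, Bowtie, RSEM and hg19, without versions or roles. Absolute depth is unknown, so no counting interval is given; FPKM summed to between 603399 and 633851 per library. No per-sample column stood outside the 6 (0).

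Repeated symbols were left out, among them 18 LINC symbols, of which only LINC01481 had a copy of at least 1 FPKM. A further 677 LINC symbols stood in the second table only, 0 of them at a mean of 1 FPKM. For 13909 symbols with a mean FPKM of at least 1, log2(FPKM + 1) was modelled in R 4.3.3 by limma 3.58.1 with group means, the table as a block and a mean-variance trend (2 residual, 3.34 prior degrees of freedom). Two-sided p-values were adjusted by Benjamini-Hochberg over all 13909, with a threshold of 0.05. The fit was tested on simulated data. The tables were normalized separately, and libraries were paired by table. Second-table minus first-table values, compared between pairs of groups, gave r of 0.616, 0.666 and 0.676 over genes and of 0.192, -0.432 and 0.166 over the LINC RNAs. The -0.432, for WT and SNAI1_2, includes LINC00444, listed at 17.9 and 0 FPKM in WT and 0 and 11.1 in SNAI1_2. The r without LINC00444 was not calculated.

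The LINC RNAs and lists were chosen with earlier results of these data known. Named RNAs were the 10 largest rises and falls that passed and moved one way in all 4 within-table differences (only 9 falls qualified), the 5 most abundant, the 3 on either side of the limit, those with a known role or small protein, the nearest protein-coding genes of the first group, and the 3 with the largest difference between SNAI1_2 and SNAI1_1. Other RNAs and genes were named after their values were seen. The alternatives left out the block, the limit or the trend, or used pseudocounts of 0.1 and 10, a limit of 5 FPKM, quantile or median-ratio scaling, a log2 difference of at least 1, only symbols with digits, and leaving out each library. Exons were taken from GENCODE 29 (GRCh38), gene order and promoters from RefSeq (GRCh38.p14). The files hold no coordinates, and their build differs, so these serve for names, neighbours and sequences. Exons were aligned with blastn (version 2.17.0, e-value 1e-10), an analysis added after the values were seen; the exon sequences are not reported here.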

Additional observations from a re-analysis of the deposited data

How the results depend on the processing

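For both SNAI1 groups against WT, 31 LINC RNAs were called. Without the replicate block, 13 were called, without a limit on the level 12, with a mean FPKM of at least 5 (26 RNAs tested) 9, and with a log2 difference of 1 or more 15, all of them among the 31. Leaving out one library gave 14 to 23. For SNAI1_1, called in 20, these counts were 9 without the block, 8 without a limit and 10 at 5 FPKM, and 9 to 18 on leaving out one library. For SNAI1_2, called in 23, they were 11, 10 and 9, and 11 to 18. Over all 13909 genes, 4348 were called for both groups against WT. That number was 1065 without the block, 2139 of 30248 without a limit and 3411 of 9477 at 5 FPKM. Fewer RNAs were tested at 5 FPKM, and the cause of the other changes was not tested. Between SNAI1_2 and SNAI1_1, 0 were called under every alternative. The median log2 difference of -0.010 became 0.027 at 5 FPKM, -0.064 under quantile normalization and 0.027 under median-ratio scaling, and lay between -0.031 and 0.014 with one library left out, so its sign is not settled. Higher calls were 67.7% of the LINC calls, 61.5% under quantile normalization and 70.0% under median-ratio scaling, and 50.6%, 49.0% and 59.1% of calls over all genes.

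Of 494 alternatives of 37 single RNAs, 355 changed neither their call nor their direction, 134 lost the call in the same direction, 1 gained it and 4 reversed. Among the lost calls the log2 difference was at least as large as before in 74 and smaller in 60, and 82 came on leaving out one library. The reversals came on leaving out one library too. LINC00467 lay between -0.046 and 0.36, LINC00665 between -0.035 and 0.15 and LINC00444 between -4.24 and 1.80, the last also reversing to 0.21 without the first-table library of SNAI1_2. None of the 3 had passed. Genes sharing the exon of LINC00678 or LINC00458 and called higher numbered 23 and, with at least 200 aligned bases, 13. Both counts include LINC00678 and LINC00458 themselves. Depth is unknown, which leaves the precision of low values unknown.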

Other observations

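LINC symbols below the limit of 1 FPKM hold further differences. In the fit without a limit, 625 of them had a value above 0 and were tested, and 11 were called by limma, 5 higher and 6 lower, where 7.07% of all 30248 symbols were called. LINC02407 was listed at 0.051 and 0 FPKM in WT, 0.69 and 0.60 in SNAI1_1, and 0.65 and 0.36 in SNAI1_2 (log2 difference 0.61, adjusted p 0.0438). LINC02335 was at 0 in both WT libraries and between 0.33 and 0.50 FPKM in the SNAI1 libraries. The other 3 higher were LINC00052, LINC01123 and LINC01336.

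LINC01993 was at 1.52 and 1.19 FPKM in WT, 0.49 and 0.41 in SNAI1_1, and 0.43 and 0.33 in SNAI1_2 (log2 difference -0.73, adjusted p 0.0410). LINC00917 was at 0.97 and 1.18 FPKM in WT and between 0.11 and 0.48 in the SNAI1 libraries, with a log2 difference of -0.67. LINC00540 was at 0.57 and 0.47 FPKM in WT and between 0 and 0.14 in the SNAI1 libraries. LINC00237, LINC00958 and LINC02144 were also lower, from WT levels of at most 0.41 FPKM. At such levels a few fragments set the value, and without read totals the number cannot be given.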
